A study of Nicotiana with 12 samples.

Results

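The leaves of wild-type (WT) tobacco kept short of water for 45 days were compared with leaves of WT plants watered fully over the same time. All 3 arrays of stressed and all 3 arrays of watered WT leaves in the series were taken, 6 of its 12 arrays, and every probe set other than the array's own controls was read. The other 6 arrays are leaves of PSARK::IPT plants under the same 2 water supplies. In those plants the SARK promoter, taken from a receptor kinase gene that is switched on as leaves senesce, drives IPT, which encodes the isopentenyltransferase that starts cytokinin synthesis. They entered the same model, so they bear on the error of every WT change, and their own stress effect is set against that of WT leaves at the end.

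Stressed WT plants received 300 mL of water per pot and day, and watered WT plants received 1000 mL; the labels give both as wildtype. PSARK::IPT plants, stressed and watered, received the same volumes. All plants were moved to a greenhouse at 3 weeks of age and were about 10 weeks old at sampling, and each group had 3 biological replicates with 1 array each. Biotin-labelled RNA copied from 6 ug of total leaf RNA was put on the Affymetrix Tomato Genome Array, so tomato probes read tobacco RNA. A probe set is therefore compared with itself between groups and not with another probe set.

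A leaf that loses water closes its stomata, which lowers the entry of CO2, and abscisic acid is the hormone best known for this response. Over long deficits leaves also draw on starch, make protective proteins such as dehydrins and small heat-shock proteins, and slow growth through changes in the enzymes that loosen cell walls. Light that is absorbed but not used for carbon fixation has to be dissipated in the plastid, where xanthophylls, the plastid terminal oxidase and antioxidant enzymes take part.

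The values are log2 intensities, and a difference of 1 is 2-fold. Array medians lay between 3.38 and 3.45 over the 12 arrays. Pairs of stressed arrays correlated across probe sets with r of 0.982 to 0.988, and pairs of watered arrays with r of 0.989. The 3 stressed arrays had a median SD per probe set of 0.165, and the 3 watered arrays 0.147. CAB4, a light-harvesting protein of green tissue, lay between 9.90 and 10.59 on all WT arrays, which is no test of the leaf label because probe sets are not compared with each other.

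The poly-A controls are bacterial transcripts added to the RNA before labelling, and the excess of their 3′ over their 5′ probe sets grows when labelling stops short of the 5′ end. Over 4 such transcripts this excess was 3.93, 5.43 and 3.70 in stressed WT replicates 1, 2 and 3, and 2.20, 2.18 and 2.32 in watered WT replicates 1, 2 and 3. Stressed replicate 2 stood highest, and no stressed array reached down to a watered one. The means were 4.36 ± 0.94 in stressed and 2.24 ± 0.07 in watered leaves (SD, n = 3 each), a shift of 2.12 log2 units (exact two-sided permutation p = 0.1, the smallest that 3 against 3 arrays can give).

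The level of the same controls was 8.04 ± 0.41 in stressed and 10.06 ± 0.05 in watered WT leaves (SD, n = 3 each), a difference of -2.02 (exact two-sided permutation p = 0.1). On PSARK::IPT arrays this level was 8.49, 8.59 and 8.67 in stressed leaves and 8.29, 8.47 and 8.20 in watered leaves. The 3 watered WT arrays, at 10.02 to 10.11, thus stood above every other array of the series, and each WT change is measured against them. Among plant transcripts with probe sets at both ends, the 3′ excess was larger in stressed leaves by 0.71 for GAPDH, 0.65 for EF1a and 0.93 for actin (exact two-sided permutation p = 0.1 each). It differed by 0.11 for ubiquitin, 0.47 for GlutTrans and -0.02 for PhyB2, with exact two-sided permutation p of 0.5, 0.3 and 1. The hybridisation controls, which are added after labelling, were at 10.05 ± 0.15 in stressed and 10.19 ± 0.03 in watered leaves (SD, n = 3 each, exact two-sided permutation p = 0.3). The shift of 2.12 stands beside every WT effect below, and for many genes the change is also given from a fit that holds each array's 3′ excess as a covariate. The labels give no batch, and on these arrays labelling and water supply cannot be told apart.

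**Figure D1:**
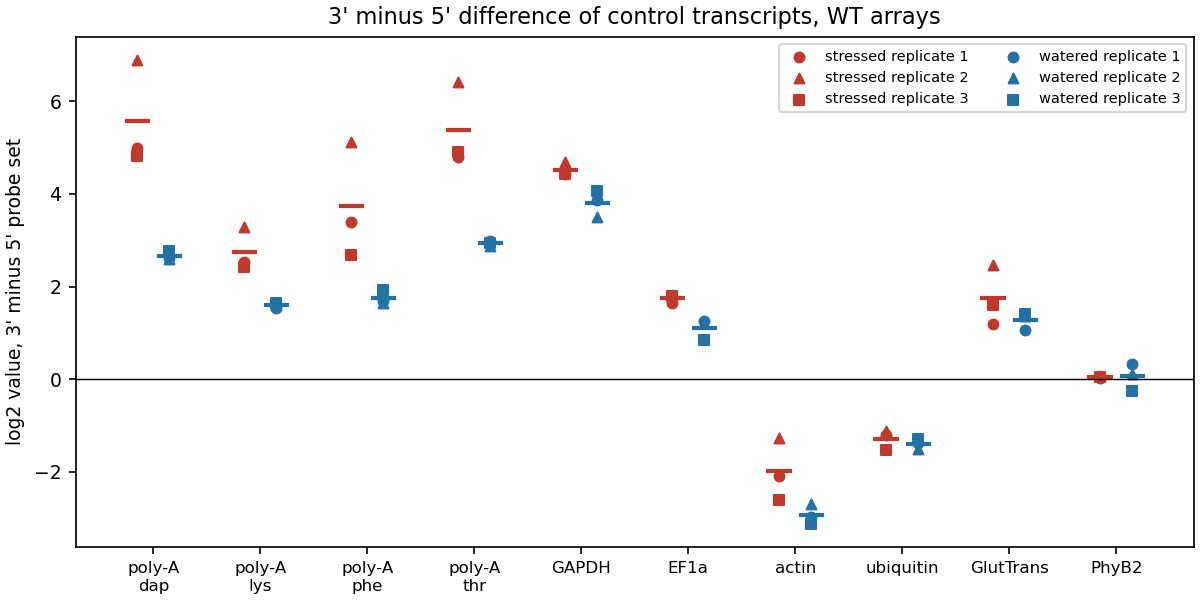
Difference in log2 value between the 3′ and 5′ probe sets of control transcripts (y axis) for 4 poly-A controls and 6 plant transcripts (x axis). Red marks are stressed WT arrays, drawn left of the blue watered WT arrays; mark shapes are replicates and bars are group means. All 4 poly-A controls were higher on the 3 stressed arrays than on the 3 watered arrays, and stressed replicate 2 was the highest for each.

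Of 10101 probe sets tested with limma, 1142 had an adjusted p (Benjamini-Hochberg) under 0.05 and are said to pass, which is 11.3%. Of these, 569 rose (5.63%) and 573 fell (5.67%) in stressed leaves. Over all probe sets tested, 2528 had an unadjusted p under 0.05. Among these calls 138 probe sets fell at least 2-fold (1.37%) and 34 rose at least 2-fold (0.337%). With the poly-A covariate only 59 probe sets passed, 35 of them 2-fold or more higher and 23 of them 2-fold or more lower. Of the 138 falls, 32 were still at -1 or below with it, and 19 passed. Of the 34 rises, 23 were still at 1 or above with it, and 19 passed. Without the covariate, 17 fell and 4 rose at least 4-fold. The median log2 change over all probe sets was 0.04. The 3 stressed arrays lay all above the 3 watered ones for 1615 probe sets and all below for 1188, together 27.7% of those tested.

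Stressed replicate 2, the array with the largest poly-A shift, was the lowest stressed array for 111 of the 138 falls of at least 2-fold (80.4%), against 32.4% of all probe sets. It was the highest stressed array for 21 of the 34 rises of at least 2-fold (61.8%), against 37.7% of all probe sets. Without it 748 probe sets passed, 364 higher and 384 lower, with 34 rises and 87 falls of at least 2-fold. Fitted to the WT arrays alone, 694 probe sets passed, and ats1, ER5, TUB, IAA3, NRAMP3, adc1, FDH and LAPA2, described below, did not. Calls were concentrated among bright probe sets: 978 of the 1142 had a mean level above the median of all, and 164 below it.

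**Figure D2:**
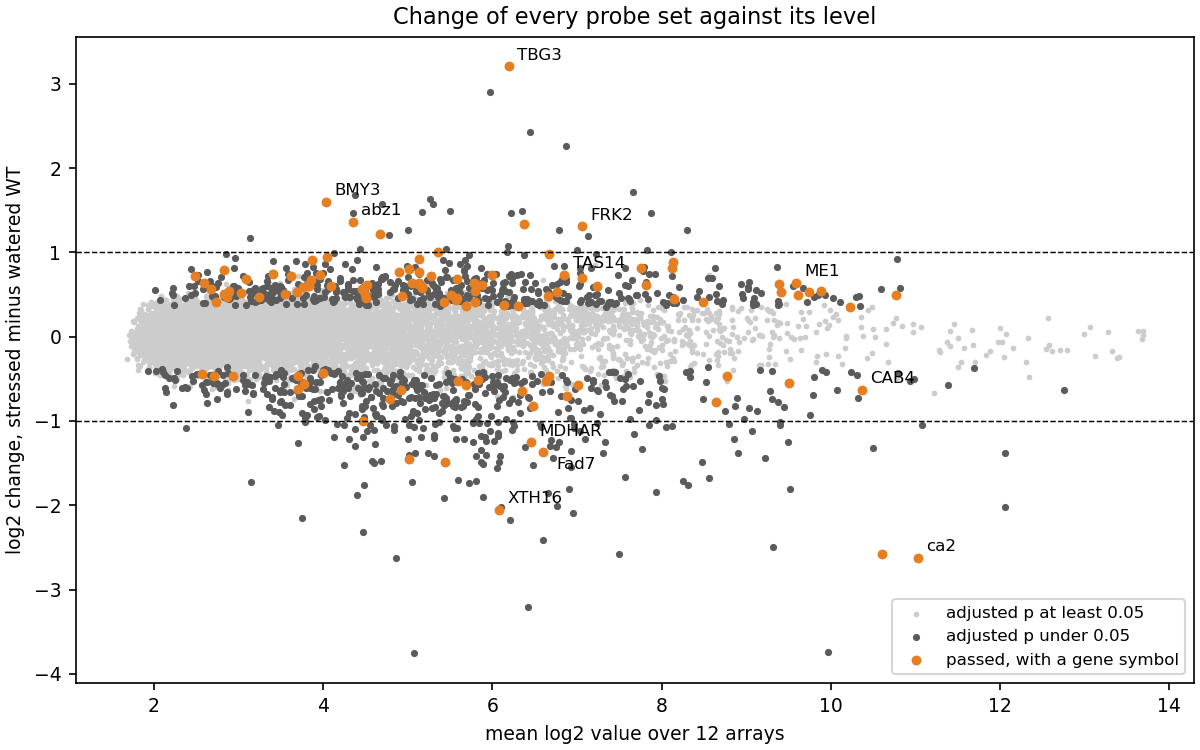
Log2 change, stressed minus watered WT (y axis), of each of 10101 probe sets against its mean log2 value over 12 arrays (x axis). Dark points passed at an adjusted p under 0.05, orange points passed and have a gene symbol, grey points did not pass, and dashed lines mark 2-fold. There are 138 points that passed below the lower line and 34 above the upper one, and 136 of the 138 have a mean level above the median of all probe sets.

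Exactly 1 gene symbol is carried by 909 probe sets, for 802 tomato genes, and the other 9192 are left unnamed here. Of the 909, 11.9% passed, 78 higher and 30 lower, and these name 106 genes. At least 2-fold, 7 rose and 8 fell. Counted by 1 probe set per gene, the brightest, 77 of 802 genes rose, 25 fell, and the median log2 change was 0.09. The pathway counts below use the same probe set per gene and are read against that background.

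Among genes of the cell wall, the leading change was TBG3 (probe set Les.1.1.S1_at), a beta-galactosidase, an enzyme that removes galactose from wall polysaccharides. It was at 8.45, 8.41 and 8.58 in stressed leaves and at 5.32, 5.43 and 5.06 in watered leaves. All stressed arrays lay about 3 log2 units above all watered ones. The rise was 9.24-fold (log2 change 3.21, SE 0.12, n = 3 each, adjusted p = 7.18e-11), and the log2 change was 3.39 with the poly-A covariate. No other named probe set rose as far.

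Of 47 genes for wall enzymes and expansins, 7 rose, 2 fell and 38 did not pass, with a median log2 change of 0.08. Besides TBG3, the beta-galactosidases TBG4 (0.64) and TBG5 (0.61), the pectin methylesterase PMEU1 (0.64), the endoglucanases cel5 (0.51) and Cel3 (0.37) and the expansin EXP12 (0.50) rose. TBG1, TBG2, TBG6 and TBG7 of the beta-galactosidase family did not pass, with log2 changes of -0.05, 0.21, -0.11 and -0.06. With the poly-A covariate TBG4, TBG5, PMEU1, cel5, Cel3 and EXP12 were at 0.53, -0.11, 0.42, 0.95, 0.38 and 0.22, and none of these passed. Without watered replicate 1, 5 of the 47 passed in place of 9.

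The endoglucanase Cel1 was at 3.82, 3.71 and 4.14 in stressed leaves and between 4.61 and 5.06 in watered leaves. The groups did not overlap, and it fell 2.0-fold (log2 change -1.0, SE 0.15, adjusted p = 0.000356), at -0.74 with the poly-A covariate, which did not pass. CEL8, of the same family, fell by 0.57 on the log2 scale (SE 0.12). The sum of the list's probe sets on the linear scale was 958 to 1015 in stressed and 637 to 649 in watered arrays. Without TBG3 the sum of the other 46 was 608 to 670 in stressed and 597 to 606 in watered arrays.

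XTH16, a xyloglucan endotransglucosylase of the wall, has 3 probe sets that did not behave alike. Les.4008.2.S1_at was at 4.10, 3.24 and 3.52 in stressed leaves and at 5.77, 5.55 and 5.69 in watered leaves, a 4.14-fold fall (log2 change -2.05, SE 0.17, adjusted p = 1.45e-06), and its change with the poly-A covariate was -1.40, which passed, but not with the covariate over all 12 pairs of poly-A probe sets. The second fell by 0.46 on the log2 scale, and the brightest, which the list counts, was at -0.02 and did not pass. Which of them reads the tobacco gene best was not tested.

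For starch and sugar, 3 of 19 genes rose, 1 fell and the median log2 change was 0.03. By the same count, 77 of all 802 named genes rose and 25 fell. BMY3, a beta-amylase that breaks starch down to maltose, was at 5.22, 6.60 and 5.59 in stressed leaves and at 4.92, 4.03 and 3.66 in watered leaves. The stressed arrays were all above the watered ones but spread over more than 1 log2 unit, with replicate 2 the highest. BMY3 rose 3.03-fold (log2 change 1.60, SE 0.31, adjusted p = 0.00303). Its change was 1.20 without stressed replicate 2 and 0.52 with the poly-A covariate, which did not pass. Its other 2 probe sets were at -0.19 and -0.27 and did not pass.

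FRK2, a fructokinase that feeds fructose released from sucrose into metabolism, was at 6.80, 6.90 and 6.53 in stressed leaves and at 5.41, 5.40 and 5.50 in watered leaves. It rose 2.48-fold (log2 change 1.31, SE 0.12, adjusted p = 3.33e-06), with the groups more than 1 log2 unit apart. The other fructokinases FRK1, FRK3 and FRK4 were at 0.13, -0.13 and -0.08 and did not pass. The sucrose synthase sus3 rose by a log2 change of 0.49 (SE 0.15) and was at 0.01 with the poly-A covariate. AGPL3, a large subunit of ADP-glucose pyrophosphorylase in starch synthesis, fell by 0.52 on the log2 scale (SE 0.15). The count of 4 genes passed was 2 without stressed replicate 1, stressed replicate 2 or watered replicate 1.

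GAL83, a beta subunit of the SnRK1 kinase that senses low energy supply, was at 7.39, 7.06 and 7.50 in stressed leaves and at 6.33, 6.35 and 6.34 in watered leaves. All stressed arrays were above all watered ones, and replicate 2 was the lowest of the stressed. The rise was 1.96-fold (log2 change 0.97, SE 0.13, adjusted p = 0.000126), and the log2 change was 1.31 with the poly-A covariate, which passed. SNF1 and SNF4, which are named for the other subunits of the complex, were at 0.31 and 0.48 and did not pass.

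**Figure D3:**
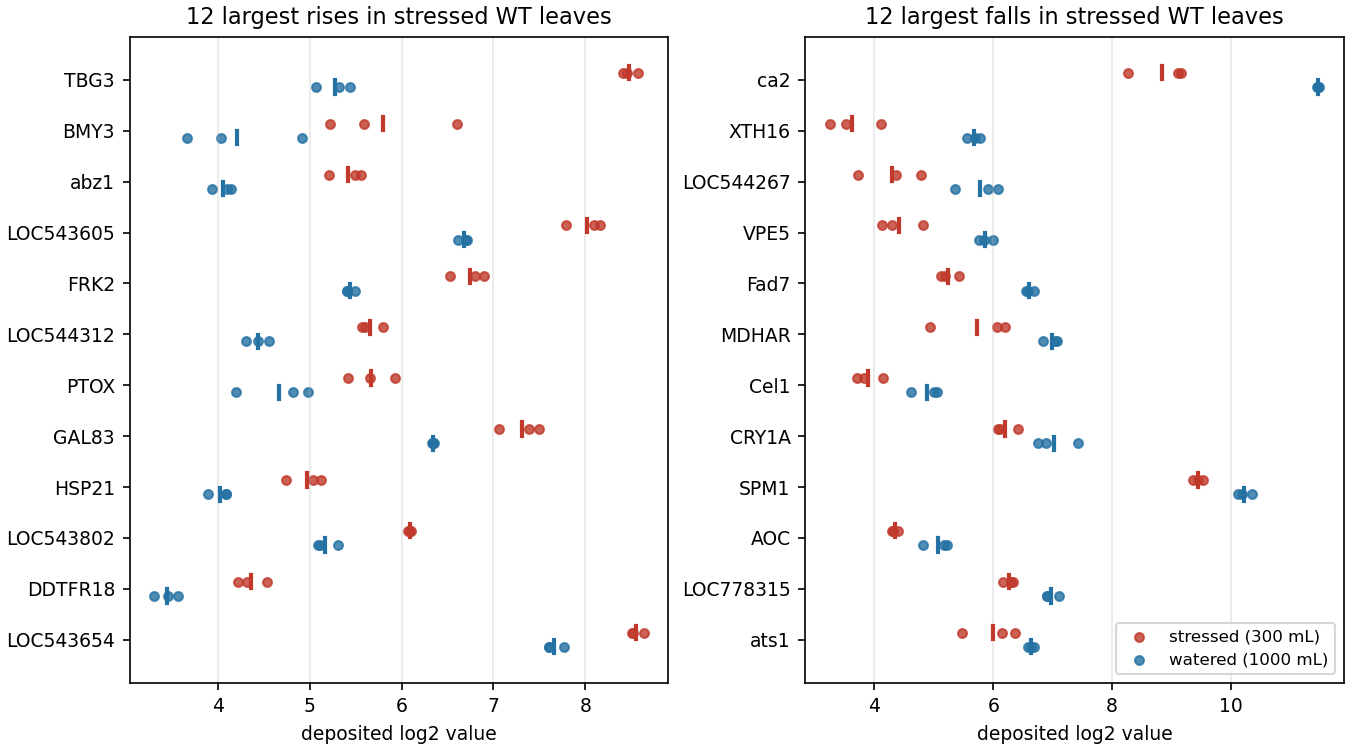
Deposited log2 values (x axis) of the 12 named genes with the largest rises (left) and the 12 with the largest falls (right) of those that passed, each gene by 1 probe set. Red points are the 3 stressed and blue points the 3 watered WT arrays, and bars are group means. The stressed and watered points do not overlap for any of the 24 genes, which were chosen for their change between these same arrays. Over all probe sets, 27.7% do not overlap. BMY3 and MDHAR have the widest spread among stressed arrays.

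Of 9 genes listed under light harvesting and photosystems, 2 fell, 0 rose and 7 did not pass. All 9 log2 changes were below 0 (median -0.30), against 268 of all 802 named genes. The sum of their probe sets on the linear scale was 13065 to 13789 in stressed and 17577 to 18313 in watered arrays. Without ca2 the sum of the other 8 was 12514 to 13217 in stressed and 14784 to 15435 in watered arrays. In whole leaves, fewer cells of a type and less RNA per cell cannot be told apart.

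ca2, a carbonic anhydrase that interconverts CO2 and bicarbonate and is not itself a photosystem protein, fell furthest among named genes. Its probe set Les.4428.1.S1_a_at was at 9.11, 8.28 and 9.16 in stressed leaves and at 11.45, 11.47 and 11.49 in watered leaves. The watered arrays were almost level, and the stressed arrays were more than 2 log2 units below them, with replicate 2 the lowest. The fall was 6.16-fold (log2 change -2.62, SE 0.18, adjusted p = 1.03e-07), and the change was -2.34 without replicate 2 and -1.66 with the poly-A covariate, which passed. A second bright probe set fell by 2.58 on the log2 scale, and the change was -1.08 with the covariate, which did not pass. The other 2, at log2 values of 3.16 or less on every WT array, did not pass.

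CAB4 was at 9.93, 9.91 and 9.90 in stressed leaves and at 10.53, 10.50 and 10.59 in watered leaves. Replicates differed by less than 0.1 within each group, and the fall was 1.55-fold (log2 change -0.63, SE 0.10, adjusted p = 0.000847), at -0.66 with the poly-A covariate (adjusted p = 0.218). The light-harvesting proteins CAB5 (-0.30) and CAB6A (-0.28) and the oxygen-evolving proteins PSBP (-0.30) and PsbQ (-0.30) did not pass. Their groups did not overlap, which holds for 27.7% of all probe sets.

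Among desaturases and enzymes of oxylipin synthesis, 2 of 13 fell and 0 rose, with a median log2 change of -0.11. Fad7, the plastid omega-3 desaturase that makes trienoic fatty acids of the plastid lipids, was at 5.42, 5.12 and 5.18 in stressed leaves and at 6.59, 6.69 and 6.54 in watered leaves. It fell 2.58-fold (log2 change -1.37, SE 0.12, adjusted p = 2.33e-06), at -1.07 with the poly-A covariate, which passed, but not with the covariate over all 12 pairs. AOC, the allene oxide cyclase of jasmonate synthesis, was at 4.40, 4.31 and 4.30 in stressed leaves and at 4.82, 5.18 and 5.23 in watered leaves, and fell 1.67-fold (log2 change -0.74, SE 0.14), at -0.72 with the covariate, which did not pass. AOS, which acts just before it in that pathway, was at 0.38, and OPR3, which acts after it, at -0.19; neither passed.

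In the plastid isoprenoid routes, PTOX, the plastid terminal oxidase, was at 5.42, 5.93 and 5.66 in stressed leaves and at 4.19, 4.98 and 4.81 in watered leaves. It rose 2.01-fold (log2 change 1.01, SE 0.19, adjusted p = 0.00258), at 0.71 with the covariate, which did not pass. Without the covariate PTOX was the 1 of 7 carotene genes that passed. Psy1 and PSY2, phytoene synthases, were both at -0.21. DXR, an early enzyme of the plastid isoprenoid pathway, rose by a log2 change of 0.62 (SE 0.13), the 1 of 4 genes of that list to pass, and 2 passed without stressed replicate 2.

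For abscisic acid and xanthophyll synthesis, 0 of 8 genes passed in limma and 1 had an unadjusted p under 0.05. Without stressed replicate 1, 1 gene passed. NCED1, the enzyme held to limit abscisic acid synthesis, was at 1.80, 2.44 and 1.98 in stressed leaves and at 2.60, 2.21 and 2.51 in watered leaves. The groups overlapped at a dim level (log2 change -0.37, SE 0.19, adjusted p = 0.250). VDE, the violaxanthin de-epoxidase of the xanthophyll cycle, has 2 probe sets that went apart: 1 rose by a log2 change of 0.54 (SE 0.15), except without stressed replicate 2 or 3 or any 1 watered replicate, and the brighter one, which the list counts, was at -0.46 and did not pass.

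Protective proteins included a small number of rises. The dehydrin TAS14, a water-stress protein first described in tomato, was at 8.53, 8.98 and 8.46 in stressed leaves and at 7.97, 8.01 and 7.78 in watered leaves. The groups did not overlap, and it rose 1.66-fold (log2 change 0.73, SE 0.15, adjusted p = 0.00391), at 0.28 with the poly-A covariate, which did not pass. ER5, a LEA-like protein, rose by 0.54 (SE 0.16) with overlapping groups, and did not pass without stressed replicate 2 (adjusted p = 0.193), without stressed replicate 3 or without watered replicate 1, 2 or 3. These were the 2 of 6 genes for dehydrins, LEA and lipid transfer proteins that passed, and the list's median was 0.38, or 0.16 with the poly-A covariate.

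Of 7 heat-shock genes 2 rose and 0 fell, with a median of -0.05. The plastid small heat-shock protein HSP21 was at 5.12, 4.75 and 5.04 in stressed leaves and at 3.89, 4.09 and 4.09 in watered leaves, a 1.93-fold rise (log2 change 0.95, SE 0.15, adjusted p = 0.000847), at 1.21 with the poly-A covariate, which did not pass. HSC80, of the HSP90 family, rose by 0.61 (SE 0.12). The cytosolic small heat-shock genes HSP17-6 and HSP17.4 were at -0.46 and 0.18 and did not pass.

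Among 14 antioxidant enzymes, 2 rose and 1 fell, with a median of -0.07, against 77 risen and 25 fallen of all 802 named genes. GPXle-1, a glutathione peroxidase, rose 1.54-fold (log2 change 0.62, SE 0.11), and the catalase cat1 rose by 0.49 (SE 0.11). MDHAR, monodehydroascorbate reductase, which regenerates ascorbate, was at 6.06, 4.94 and 6.20 in stressed leaves and at 7.07, 6.83 and 7.04 in watered leaves. It fell 2.38-fold (log2 change -1.25, SE 0.23, adjusted p = 0.00234), by 0.86 on the log2 scale without replicate 2. With the poly-A covariate its change was 0.10, above 0. The ascorbate peroxidases APX, APX1 and APX2 were between -0.24 and -0.16 and did not pass.

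**Figure D4:**
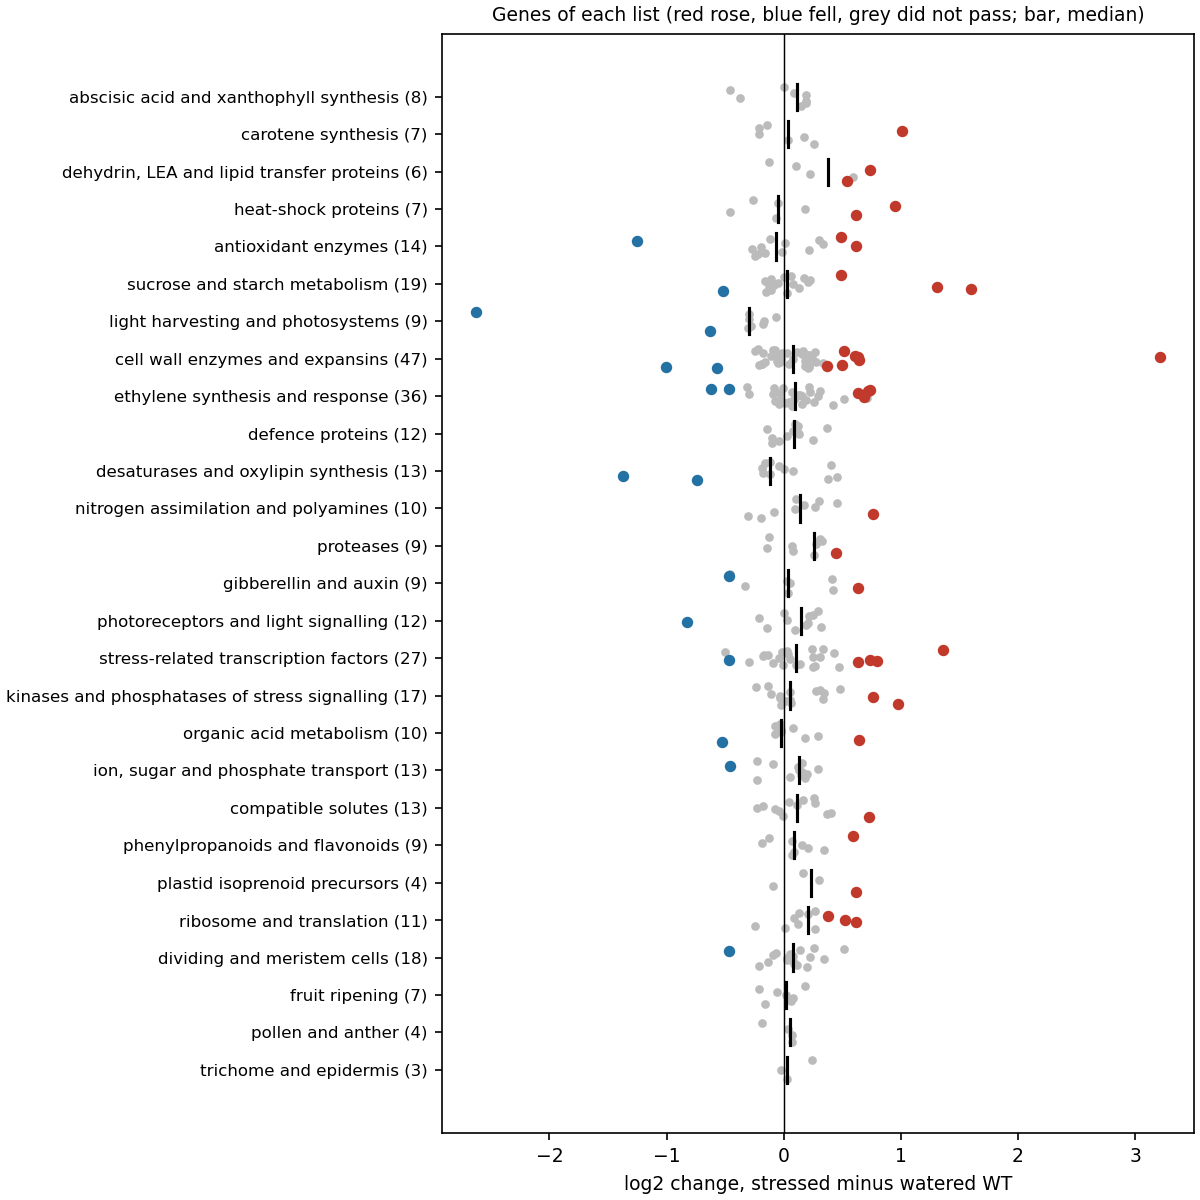
Log2 change, stressed minus watered WT (x axis), of each gene in 27 gene lists (y axis, number of genes in brackets), 1 probe set per gene, the brightest. Red points rose, blue points fell, grey points did not pass, and bars are list medians. Most points are grey in every list, and all 9 points of light harvesting and photosystems lie below 0.

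Transcription factors tied to stress had 4 of 27 members higher and 1 lower (median 0.10), or 3 in all without stressed or watered replicate 2. The bZIP factor abz1 was at 5.49, 5.21 and 5.56 in stressed leaves and at 4.10, 4.14 and 3.93 in watered leaves. All stressed arrays were more than 1 log2 unit above all watered ones, and it rose 2.57-fold (log2 change 1.36, SE 0.15, adjusted p = 2.68e-05), at 1.54 with the poly-A covariate, which passed, but not with the covariate over all 12 pairs. JA2, a NAC factor, rose by 0.80 (SE 0.15), and the ethylene response factors JERF1 and ERF4 rose by 0.74 (SE 0.16) and 0.64 (SE 0.19). JERF3, of the same family, fell by 0.47 on the log2 scale. The DREB factors DREB1, DREB2 and DREB3, named for the dehydration-response element, and AREB1, named for the abscisic acid response element, were at 0.27, -0.01, 0.10 and 0.25 and did not pass.

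Of 36 genes for ethylene synthesis and response, 4 rose and 2 fell (median 0.09). Without stressed replicate 2 or 3, or watered replicate 2, 3 genes passed, and without watered replicate 3, 2. The receptor ETR5 (0.72), the EIN3-like factor EIL3 (0.68), JERF1 and ERF4 rose, and the response factors PTI4 (-0.62) and JERF3 fell. With the poly-A covariate ETR5, EIL3, JERF1 and ERF4 were at 0.36, 0.53, 0.52 and 0.53, and PTI4 and JERF3 at -0.47 and -0.37. None of these passed with it. EIL1, of the same family as EIL3, was at 0.71 and did not pass (adjusted p = 0.0649). The 8 ACC synthase genes were between -0.07 and 0.26, and none passed; ACC synthase makes the direct precursor of ethylene.

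Among kinases and phosphatases of stress signalling, GAL83 and MKK4, a kinase of the MAP kinase cascade, were the 2 of 17 that passed, and without stressed replicate 3 the count was 4. MKK4 rose by 0.76 (SE 0.16). Of 9 gibberellin and auxin genes, GA3ox1, which makes active gibberellins, rose by 0.63 (SE 0.14), at 0.38 with the covariate, which did not pass. IAA3, an Aux/IAA repressor of auxin response, fell by 0.46 on the log2 scale (SE 0.13), at -0.49 with the covariate, which did not pass. The fall of IAA3 did not pass without stressed replicate 1 or watered replicate 1 or 3. Its second probe set was at -0.17 and did not pass. CRY1A, a blue-light receptor, was the 1 of 12 light-signalling genes that passed. It fell by 0.82 on the log2 scale (SE 0.21) and was at -0.24 with the covariate, its second probe set was at 0.44 and did not pass, and the fall did not pass without stressed replicate 2, stressed replicate 3 or watered replicate 1.

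Outside sugars, single genes of primary metabolism passed. ARG1, an arginase that releases urea from arginine, was at 5.57, 5.67 and 5.73 in stressed leaves and at 4.91, 4.84 and 4.93 in watered leaves, a 1.70-fold rise (log2 change 0.76, SE 0.14), at 0.96 with the covariate, which did not pass. It was the 1 of 10 nitrogen and polyamine genes that passed, and 2 passed without watered replicate 3. Of the 4 probe sets of adc1, an arginine decarboxylase of polyamine synthesis, 1 fell by 0.64 on the log2 scale with overlapping groups, and did not pass without replicate 1 or 2 of either group. The malic enzyme ME1 was at 11.06, 10.99 and 10.97 in stressed leaves and at 10.40, 10.36 and 10.34 in watered leaves, a 1.56-fold rise (log2 change 0.64, SE 0.10), at 0.67 with the covariate, which did not pass. Formate dehydrogenase FDH fell by 0.52 on the log2 scale, and its change was 0.23 with the poly-A covariate. They were the 2 of 10 organic acid genes that passed, and 1 passed without any 1 of stressed replicates 2 and 3 and watered replicates 1, 2 and 3.

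Of 13 genes for compatible solutes, GABA-TP1, a transaminase that degrades GABA, rose by 0.73 (SE 0.14), at 0.30 with the covariate, which did not pass. The proline synthesis genes PRO1 and PRO2 were at -0.18 and 0.11 and did not pass. Without stressed replicate 1 or 3, 2 of the 13 passed. hqt, the transferase of chlorogenic acid synthesis, rose by 0.60 (SE 0.12), the 1 of 9 phenylpropanoid genes to pass. Of 11 genes for the ribosome and translation, eIF-5A1 (0.53), eIF-5A3 (0.38) and RPS25 (0.61) rose. With the poly-A covariate eIF-5A1, eIF-5A3 and RPS25 were at 0.23, 0.34 and -0.02, and none of these passed. The second probe set of RPS25 was at 0.21 and did not pass. Without stressed replicate 2, 1 of the 11 passed. The metal transporter NRAMP3 fell by 0.46 on the log2 scale, the 1 of 13 transport genes to pass, with 2 without watered replicate 3 and not NRAMP3 with the WT arrays alone. LAPA2, a leucine aminopeptidase, rose by 0.45, the 1 of 9 proteases to pass, and did not pass without stressed replicate 2 or 3 or watered replicate 1 or 3. In limma 0 of 12 defence genes passed and 0 had an unadjusted p under 0.05, and their log2 changes lay between -0.14 and 0.37.

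VPE5, a vacuolar processing enzyme, a protease of the vacuole, was lower by 1 of its 3 probe sets. That probe set was at 4.12, 4.30 and 4.81 in stressed leaves and at 5.75, 5.99 and 5.85 in watered leaves. The fall was 2.74-fold (log2 change -1.45, SE 0.18), and the change was -0.91 with the covariate, which did not pass. The other probe sets were at 0.33 and -0.14 without the covariate and did not pass. Of the 83 genes with several probe sets, 15 had any that passed. For 13 of them 1 probe set passed, for ca2 and XTH16 at least 2 passed the same way, and for 0 genes did probe sets pass in opposite directions.

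Several large named changes have a symbol with no function given here. LOC543605 was at 8.10, 7.79 and 8.17 in stressed leaves and at 6.62, 6.71 and 6.72 in watered leaves, a 2.53-fold rise. LOC544312 rose 2.33-fold, LOC543802 1.89-fold, DDTFR18 1.88-fold and LOC543654 1.85-fold. LOC544267 fell 2.81-fold, SPM1 1.71-fold, LOC778315 1.63-fold and ats1 1.57-fold. ats1 did not pass without stressed replicate 2 or any 1 watered replicate, and was at 0.41 with the poly-A covariate; its second probe set was at -0.07 and did not pass. Among unnamed probe sets, Les.3160.1.S1_at fell 13.5-fold, Les.2183.3.S1_at fell 13.3-fold, Les.4317.1.S1_at rose 7.49-fold and Les.638.1.S1_at rose 5.40-fold.

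Further named genes outside the lists passed, chosen for mention after their values were seen. Rab1A, a small GTPase of vesicle traffic, rose by 0.70 (SE 0.12), and PYRB, an enzyme of pyrimidine synthesis, by 0.69 (SE 0.12) in 1 of its 3 probe sets, with the others at -0.07 and -0.13. The amino acid permease AAP1 rose by 0.67, the oligopeptide transporter OPT1 by 0.53 and the 14-3-3 protein tft10 by 0.41. GMP, which makes GDP-mannose for the cell wall and ascorbate, fell by 0.43 on the log2 scale in 1 probe set, and the other was at -0.46 and did not pass.

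Of 18 genes of dividing and meristem cells, the tubulin TUB fell by 0.46 on the log2 scale (SE 0.12), except without stressed replicate 1 or 2 or watered replicate 2 or 3, and the others did not pass. Their linear sum was 500 to 549 in stressed and 560 to 579 in watered arrays. Of the 18 log2 changes 13 were above 0 and 5 below (median 0.08), against 534 and 268 of all 802 named genes (median 0.09). The brightest member had a mean level of 8.78, against a list median of 3.76. Bright members therefore weigh most in the sum, which was not split by gene. Cyclins CYCD3, CycA3 and CycB2 were at -0.13, 0.34 and 0.03. Of 7 fruit-ripening, 4 pollen and 3 trichome genes 0 passed in limma and 0 had an unadjusted p under 0.05, with sums of 94.9 to 106, 40.1 to 54.4 and 44.3 to 48.7 in stressed arrays. In watered arrays the sums of these 3 lists were 105 to 109, 36.9 to 48.1 and 45.6 to 46.6.

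With each array's poly-A 3′ excess as a covariate in the same model, 59 probe sets passed (0.584%), and 52 of them also passed without it. The covariate lies along the groups, and the median standard error of the 1142 calls grew 1.92 times. With 1 mean per group, its slope comes from the spread of the 3′ excess within groups. That spread was widest in stressed WT leaves (SD 0.94, against 0.07 in watered WT leaves), where replicate 2 stood apart at 5.43. The fit with the covariate and the fit without that array are therefore not independent checks. The sign was kept by 980 of the 1142. The median of the 138 falls was -1.27 without and -0.50 with the covariate, 39 of them had a change above 0 with it, and 32 were still at -1 or below. The median of the 34 rises was 1.35 without and 1.35 with it, 0 turned below 0, and 23 were still at 1 or above.

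Of 48 genes chosen by the naming rule that passed, 9 also passed with the covariate: TBG3, abz1, LOC543605, LOC544312, GAL83 and DDTFR18 were higher in stressed leaves, and ca2, XTH16 and Fad7 were lower. With the covariate taken over all 12 pairs of poly-A probe sets, 5 of the 48 passed, and abz1, DDTFR18, XTH16 and Fad7 did not. FRK2 was at 1.08 with the first covariate (adjusted p = 0.0531). Of all named probe sets that passed, 10 also passed with that covariate, 5 changed sign and 29 kept their sign at no more than 2/3 of the change.

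The stress effect was set against that in PSARK::IPT leaves, where 137 probe sets passed (1.36%). The difference of the 2 effects was tested directly, and 192 probe sets passed (1.9%), 111 with a higher change in PSARK::IPT and 81 with a lower one. Among the 1142 were 170 of them, but the WT change is part of the difference tested, so this overlap is partly built in. TBG3 had a stress effect of 0.04 in PSARK::IPT and 3.21 in WT leaves, a difference of -3.17 (SE 0.17, adjusted p = 1.92e-08). For ca2 the effect was -0.24 in PSARK::IPT and -2.62 in WT, a difference of 2.38 (SE 0.25, adjusted p = 4.16e-05). Fad7 was at 0.43 in PSARK::IPT and -1.37 in WT (difference 1.80, SE 0.17), and FRK2 at -0.16 in PSARK::IPT and 1.31 in WT (difference -1.46, SE 0.17).

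VPE5 was at -1.18 in PSARK::IPT and -1.45 in WT leaves, and the difference of 0.28 did not pass (adjusted p = 0.670). CRY1A was at -1.11 in PSARK::IPT and -0.82 in WT leaves, and that difference did not pass (adjusted p = 0.710). BMY3 was at 0.22 in PSARK::IPT and 1.60 in WT, and that difference did not pass either (adjusted p = 0.131). The poly-A 3′ excess was 3.58, 3.34 and 3.35 in stressed PSARK::IPT leaves and 2.68, 2.21 and 3.11 in watered PSARK::IPT leaves. With the covariate 120 probe sets passed for the difference, TBG3, ca2, Fad7 and FRK2 among them at -3.28, 1.76, 1.61 and -1.32. That covariate holds the 3′ excess and not the level of the poly-A controls. The level was 10.02 to 10.11 in watered WT leaves. It was 8.20 to 8.47 in watered and 8.49 to 8.67 in stressed PSARK::IPT leaves. Whether the level bears on these differences was not tested.

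**Figure D5:**
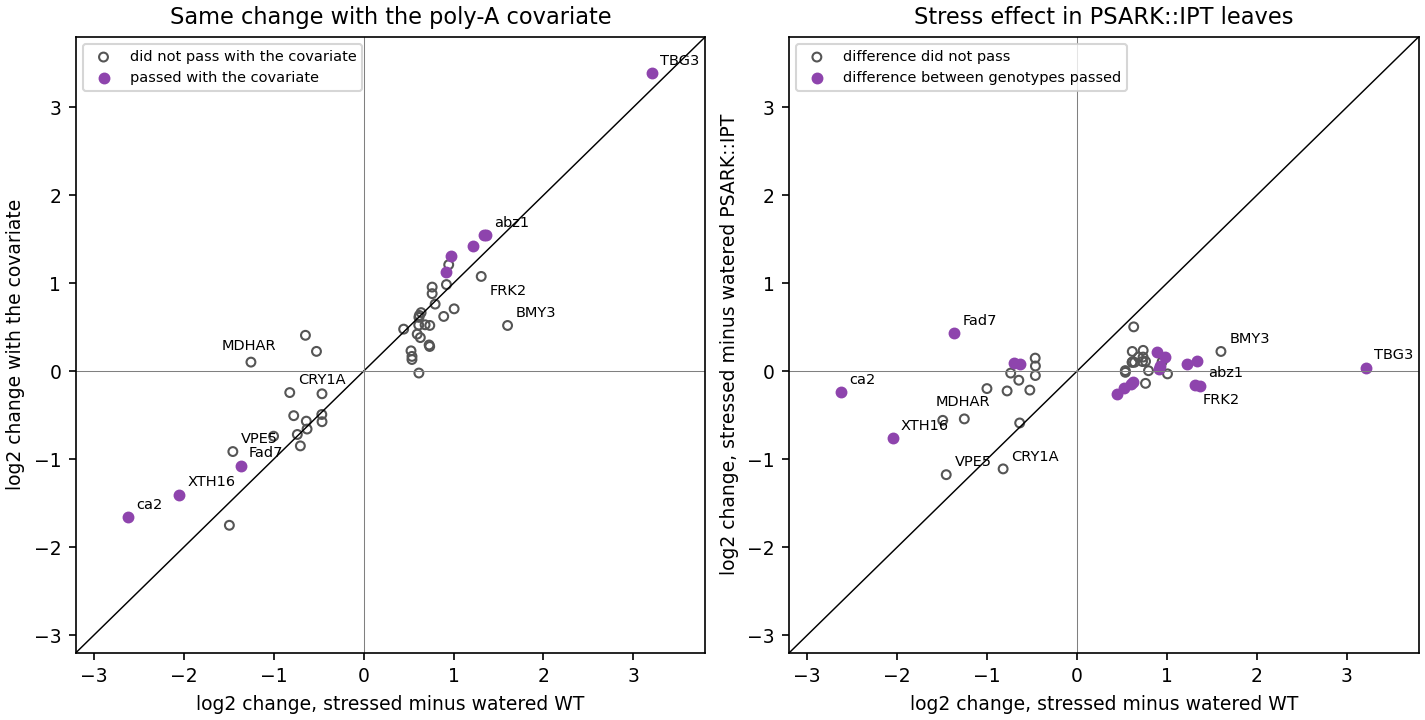
The log2 change, stressed minus watered WT (x axis of both panels), of the named genes that passed, against the change with the poly-A covariate (left) and against the change in PSARK::IPT leaves (right). Lines mark equal values. Filled points passed with the covariate (left) or passed for the difference between genotypes (right); TBG3 lies at 3.39 on the left and at 0.04 on the right.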

How the data were processed

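Leaf RNA of 12 tobacco samples, 3 in each of 4 groups, was measured on 1 array each. The deposited unit is log2 intensity. Per the submitters' processing notes the authors ran RMA, a method that subtracts background, quantile-normalises the arrays and summarises each probe set; its version is not given in the sources used here. No detection calls were used, so signal over background is unknown, and the number of arrays limits the precision.

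Of 10209 probe sets, 10101 were tested after removal of the array's controls, with no filter on dim ones. The lmFit and eBayes functions of limma 3.58.1 (R 4.3.3) fitted 1 mean per group to the 12 arrays, leaving 8 residual degrees of freedom to which the prior added 7.99. Tests are two-sided, errors are moderated standard errors, and passing means an adjusted p under 0.05 (Benjamini-Hochberg over the 10101). "Rose" and "fell" are used of what passed. Controls were compared by exact permutation over 20 splits. The pipeline was tested on simulated data with known changes, drawn without a 3′ shift between the groups. That test therefore cannot show how such a shift affects the calls. The poly-A value of an array is the mean over 4 transcripts of the 3′ minus the 5′ probe set, and was also used as a covariate.

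The members, the comparison and the 27 gene lists, 23 of pathways and 4 of markers, were chosen with earlier results of these data known. List patterns were corrected and 4 lists added once the array's symbols were read, and lists have no test. Named genes are the 12 largest rises and the 12 largest falls that passed and carry a symbol, each gene by 1 probe set, plus, from each list, its 2 members of smallest p. Other list members were named to complete counts after their values were seen. Symbols come from the platform annotation of tomato genes, which gives no titles, so functions are background knowledge. No sequence was used.

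The replicate numbers were checked for pairing: the deviations of same-numbered stressed and watered WT arrays from their group means correlated at -0.03, -0.05 and -0.05, so the numbers were not taken to pair samples. Alternatives were median-centring, quantile normalization, bright probe sets only, an intensity trend with robust moderation, array weights, only the WT arrays, the replicate number as a block, a minimum log2 change of 0.5, the covariate, and each array left out in turn. The covariate over all 12 pairs of poly-A probe sets was added after seeing the data.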

Additional observations from a re-analysis of the deposited data

Results flagged for a closer look

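Among 63 genes named by the rule, 18 had a stress effect that differed between PSARK::IPT and WT leaves in limma's test of the difference itself, against 1.9% of all probe sets. Each value is the log2 stress effect in PSARK::IPT minus that in WT, in 3 arrays against 3 for each genotype. It was below 0 for genes that rose in WT leaves: TBG3 (-3.17), abz1 (-1.53), FRK2 (-1.46), LOC543605 (-1.23), LOC544312 (-1.14), DDTFR18 (-0.88), LOC543802 (-0.87), GAL83 (-0.81), GPXle-1 (-0.74), hqt (-0.74), eIF-5A1 (-0.72), LAPA2 (-0.71) and LOC543654 (-0.68). It was above 0 for genes that fell in WT leaves: ca2 (2.38), Fad7 (1.80), XTH16 (1.29), LOC778315 (0.80) and CAB4 (0.71). The genes were named for their WT change, so a smaller change in the other genotype is partly built into the choice. The poly-A 3′ excess was larger in stressed leaves by 2.12 in WT, and watered WT arrays lay between 2.18 and 2.32. The level of the same controls differed by -2.02 between stressed and watered WT leaves, and the covariate does not hold that level. With the poly-A covariate all 18 differences kept their sign and 10 passed: TBG3, abz1, LOC543605, FRK2, LOC544312, GAL83, LOC543802, DDTFR18, ca2 and Fad7. With the covariate over all 12 pairs of probe sets 9 passed, these 10 without LOC543802. The other 8, with adjusted p of 0.0662 to 0.336 with the first covariate, did not pass.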

How the results depend on the processing

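With only the WT arrays, 694 probe sets passed (320 higher, 374 lower) in place of 1142, and 8 of the 48 named calls were lost: ats1, ER5, TUB, IAA3, NRAMP3, adc1, FDH and LAPA2. With the poly-A covariate, 59 passed (35 higher, all at least 2-fold, and 24 lower, 23 at least 2-fold), and with the covariate over all 12 pairs 40 passed (26 higher and 14 lower, all at least 2-fold); the shift and the groups lie together, and the cause was not tested. A test against a minimum log2 change of 0.5, a stricter question by construction, left 93 (26 higher, 67 lower, 66 at least 2-fold lower). For the difference of the stress effects, 192 passed, against 300 among probe sets above the median level (fewer tested), 332 with an intensity trend and robust moderation, 120 with the covariate and 105 with the 12-pair covariate. Leaving out each WT array in turn gave 748 to 1142 passed, 358 to 579 higher, 384 to 563 lower, 31 to 39 at least 2-fold higher and 87 to 163 at least 2-fold lower. Leaving out each of the 12 arrays gave 134 to 221 for the difference. Without stressed replicate 2, 748 passed, 364 of them higher, with 87 falls of at least 2-fold; without watered replicate 2, 358 rose. The poly-A difference was 1.58 to 2.45. The replicate number as a block, which the data do not bear out as a pairing, gave 1027 passed (511 higher, 516 lower) and 165 for the difference, and ats1, ER5 and FDH no longer passed.

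Some named genes changed sign. SSTLE1 was at 0.03, at -0.011 when arrays were median-centred, -0.00503 when quantile-normalized and -0.027 with array weights, and between -0.033 and 0.14 with 1 WT array left out. With the covariate MDHAR was at 0.10, ats1 0.41, GolS-1 -0.038, CHI3 -0.39, RIN -0.13, FDH 0.23, CIP2b -0.014, LAT61 -0.37 and RPS25 -0.021. With the 12-pair covariate they were at 0.28, 0.56, -0.11, -0.44, -0.16, 0.29, -0.065, -0.41 and -0.072 in that order. LAT61 was between -0.042 and 0.15 with 1 WT array left out. The WT changes of all named genes and the 18 differences between genotypes that passed were counted together over all settings. Of these results 1088 kept direction and side of the threshold, 240 lost the call, 3 gained it and 24 changed sign. A result that changed sign is not among the 240, even where it also lost the call, as MDHAR, ats1, FDH and RPS25 did with the covariate. Signal over background is unknown, and 164 of the calls lie below the median level.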
